A study of Mus musculus with 12 samples.

Results

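Amino acid transporter genes were read in the messenger RNA of mouse embryonic fibroblasts (MEFs), and were taken as the gene symbols of 7 solute carrier families: Slc1, Slc3, Slc6, Slc7, Slc36, Slc38 and Slc43. Membership was read from the symbols alone and gave 60 of the 45808 genes of the table, but the families themselves were chosen with earlier results of these data known. Type 2 transglutaminase knockout (TG2 KO) MEFs, which lack an enzyme that crosslinks proteins, were compared with wild-type (WT) MEFs. Both genotypes came from C57BL/6 embryos and were passaged until they had become immortal without further treatment, and both were grown in DMEM with 10% serum. KO heat shock and WT heat shock MEFs had spent 20 min at 42 °C, while KO control and WT control MEFs were kept at 37 °C. Each of these 4 groups held 3 libraries. The sources used here do not state whether the 3 libraries came from separate cultures, so the p-values measure the spread between these libraries, which may be technical. A difference between the genotypes and a difference between separately immortalized cells cannot be told apart.

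Cells do not pass charged or polar amino acids through the lipid bilayer, so uptake, exchange and release depend on such carriers. Some are driven by sodium (the Slc1, Slc6 and most Slc38 members), some by protons (such as Slc36a1), and some exchange one amino acid for another. Several Slc7 proteins are light chains that reach the plasma membrane only with a heavy chain of the Slc3 family, to which they are joined by a disulfide bond. In fibroblasts these carriers supply the leucine, arginine and glutamine that the kinase complex mTORC1 senses, and the cystine from which glutathione is made. Not every member of the 7 families carries an amino acid, and the Slc6 members for noradrenaline, serotonin and creatine are kept here because of their family.

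The values are read counts that the authors divided by 1 size factor per library, and each is called the signal of a gene. The libraries held 15319300 to 27668395 reads in genes, so that 1 read was worth a signal of 0.699 to 1.38. Tgm2, which encodes the deleted enzyme, had a signal of 1189, 1032 and 1065 in KO control libraries, against 1750, 1635 and 1605 in WT control libraries. The level was lower in every KO control library, but reads counted over the whole gene do not show which exons they came from and so do not check the deletion. In the heat shock groups it was 1049, 526 and 1093 in KO libraries, against 2049, 1957 and 1989 in WT libraries. Of 11 fibroblast markers, 9 had a mean signal of at least 10 in every group, while Fap had no read in KO MEFs. In KO control against WT control MEFs 4 of these 9 were called higher and 4 lower, with a mean signal of 8249 in KO and 516.6 in WT MEFs for Thy1 and of 12740 in KO and 98360 in WT MEFs for Col1a1. The summed signal of 6 muscle markers was 360.7 to 435.9 in KO control and 111.9 to 117.2 in WT control libraries, with Des at a mean of 204.8 in KO and 9.041 in WT. Their part in the results on transporters was not tested. Of 10 myeloid markers 3 had a mean signal of at least 10 in every group, and the macrophage marker Adgre1 had no read in any group. The summed myeloid signal was 1554 to 1817 in KO control libraries and 4326 to 4983 in WT control libraries, and most of it was Cd14 in KO (mean 1544) and Csf1r in WT (mean 4332).

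Of the 60 members, 35 reached a signal of 10 in 3 or more libraries and were tested. The other 25 were too low. No read was found in any library for 12 of them, among which were Slc1a1, Slc1a6, Slc7a10, Slc7a12, Slc7a13, Slc38a5 and Slc38a11. The 13 with reads were Slc1a2, Slc6a3, Slc6a5, Slc6a13, Slc6a15, Slc6a16, Slc6a19, Slc7a4, Slc7a9, Slc7a14, Slc36a2, Slc36a3 and Slc38a8, and their highest signal in a library was 5.05, for Slc7a4 (median of the 13 maxima 1.09). Slc1a1 and Slc1a2 are glutamate carriers of neurons, kidney and astrocytes, Slc6a3 carries dopamine, and Slc7a9 is the light chain that pairs with Slc3a1 in the kidney. The 60 members together took 0.307% ± 0.00374 of all signal in KO control, 0.303% ± 0.00157 in KO heat shock, 0.279% ± 0.00356 in WT heat shock and 0.295% ± 0.00264 in WT control libraries (SD, n = 3 each). By family the Slc1 share was 0.0404% in KO control and 0.0177% in WT control libraries, the Slc7 share 0.0785% in KO control and 0.0475% in WT control libraries, and the Slc43 share 0.00202% in KO control and 0.0105% in WT control libraries. The Slc6 share was 0.0576% in KO control and 0.0819% in WT control libraries, so that families which were higher in KO stood beside families which were lower.

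**Figure D1:**
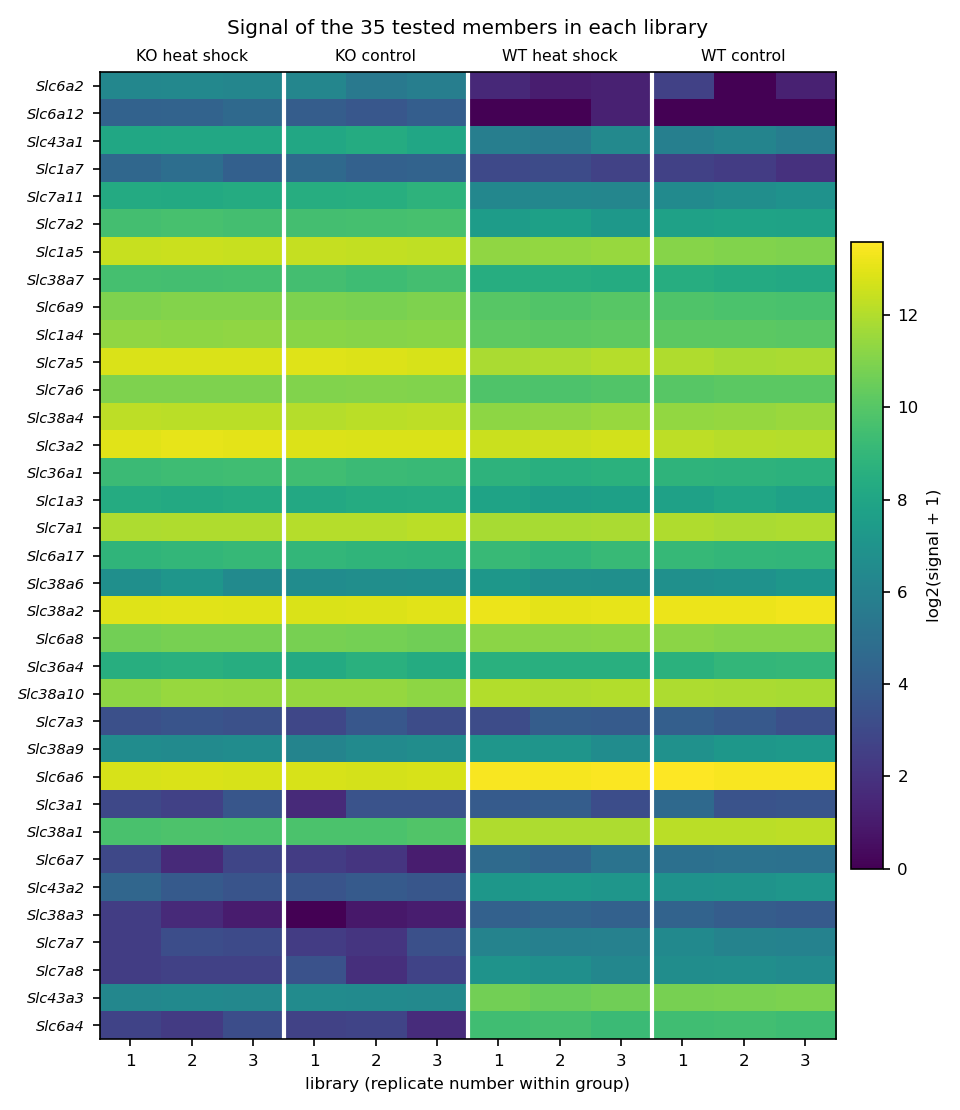
Signal of the 35 tested members (rows, ordered by the fitted change in KO control over WT control, highest at the top) in each of the 12 libraries (columns, by group), coloured by log2(signal + 1). The 3 libraries of a group look alike, and the top and bottom rows change colour at the border between KO and WT columns, not at the border between heat shock and control columns.

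In KO control MEFs the messages for the carriers of cystine (Slc7a11, 3.64-fold) and glutamine (Slc1a5, 2.48-fold) were higher than in WT control MEFs. So were those for the leucine carriers Slc7a5 (1.99-fold, with its heavy chain Slc3a2, 1.60-fold) and Slc43a1 (4.78-fold). Lower were those for another glutamine carrier (Slc38a1, 5.21-fold) and for other carriers of large neutral amino acids (Slc43a2, 10.3-fold, and Slc7a8, 15.9-fold). Those for the taurine carrier Slc6a6 (1.67-fold) and for Slc43a3 (20.6-fold) were lower too. Genes were compared on the scale of log2(signal + 1) with limma across all 14201 genes that passed the same filter. A member is said to be called, or to have risen or fallen, where its p, adjusted over all of them after Benjamini and Hochberg, did not exceed 0.05 and it changed 1.5-fold or more. In KO control against WT control MEFs, 14 of the 35 tested members were higher (40%) and 10 were lower (28.6%). Of all tested genes 22.9% were higher and 25.8% were lower in that comparison. The KO control libraries lay wholly above the WT control libraries for 17 members and wholly below for 15, beside 35.9% and 40.5% of all tested genes. In heat shock libraries it was 17 and 13 members, beside 37.1% and 41.3% of all tested genes. Where such separation is given below for a gene, it is therefore common and adds little. The median fitted change of the members was -0.12 log2, beside -0.04 for all tested genes, and it stayed at -0.12 with Slc6a12, which had no read in WT control libraries, set to its lower bound. Each ± after a log2 value is its standard error (SE). Of the 35 members, 8 reached the filter signal in 1 genotype alone (3 in KO, 5 in WT) and had to differ in order to pass. Of the other 27, 11 were higher and 5 lower, where 21.0% of the 12478 genes that reached it in both genotypes were higher and 21.2% lower. In bulk RNA, fewer cells that express a gene and less RNA per cell cannot be told apart.

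Slc3a2, the heavy chain of CD98, carries Slc7a5, Slc7a6, Slc7a7, Slc7a8 and Slc7a11 to the membrane. Slc3a2 had a signal of 7386, 7144 and 7233 in KO and 4757, 4529.8 and 4348 in WT control libraries, and of 7975, 8635 and 8354 in KO and 5765, 6060.4 and 6547 in WT heat shock libraries. All KO control libraries lay above all WT control libraries, and Slc3a2 rose 1.60-fold (log2 0.68 ± 0.06 SE, adjusted p = 3.98e-08). After heat shock the KO libraries still lay above the WT libraries, but the change was 0.44 ± 0.06 log2 (adjusted p = 4.03e-06), which is below 1.5-fold. Slc7a5, or LAT1, takes up leucine and other large neutral amino acids in exchange for intracellular ones such as glutamine. Slc7a5 had a signal of 7727, 7448 and 7044 in KO and 3949, 3565 and 3658 in WT control libraries, and of 7162, 7218 and 7199.6 in KO and 3721, 3827 and 4358 in WT heat shock libraries. It was higher in KO by 0.99 ± 0.06 log2 in control and 0.86 ± 0.06 log2 in heat shock MEFs, and the KO and WT libraries did not overlap under either condition.

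The light chains differed in direction. Slc7a6 (y+LAT2), which exports arginine and lysine in exchange for neutral amino acids and sodium, had a signal of 2033, 2161 and 2049 in KO and 1076, 1155 and 1138 in WT control libraries, and of 1984, 1951 and 1977 in KO and 913, 875 and 942 in WT heat shock libraries. It rose as Slc7a5 did, by 0.89 ± 0.05 log2 in control and 1.11 ± 0.05 log2 in heat shock MEFs. Slc7a7 (y+LAT1), which performs the same exchange in kidney and gut epithelium and in macrophages, had a signal of 4.24, 3.33 and 9.04 in KO and 85.0, 66.4 and 63.6 in WT control libraries, and of 4.52, 8.30 and 7.33 in KO and 65.2, 59.8 and 60.6 in WT heat shock libraries. Slc7a8 (LAT2), a carrier for large and small neutral amino acids, had a signal of 9.54, 2.50 and 5.65 in KO and 101, 103 and 92.9 in WT control libraries, and of 4.52, 5.19 and 5.23 in KO and 124, 109 and 75.8 in WT heat shock libraries. Both fell in KO control MEFs (Slc7a7 -3.56 ± 0.30 log2, Slc7a8 -3.99 ± 0.32 log2), and no KO library reached a signal of 10 for either. Macrophages are a known site of Slc7a7, and among the myeloid markers Csf1r had a mean signal of 12.3 in KO control and 4332 in WT control libraries, Cd14 one of 1544 in KO and 183 in WT and Cd68 one of 84.7 in KO and 123.7 in WT, while Ptprc, Adgre1, Itgam, Fcgr1 and Tyrobp had no read in WT control libraries. The part of other cell types in the Slc7a7 result was not tested. Slc7a7 and Slc7a8 lie 304.4 kb apart on the same strand of chromosome 14 (GRCm38). Opposite-strand exons of Oxa1l cover 7.0% of the Slc7a7 exons, and the sources used here do not give the strand setting of the counting.

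Per kilobase of annotated exon, a scale on which genes can be set beside each other, Slc3a2 had the highest level of all members in KO control libraries (2056 ± 34.8, SD, n = 3), followed by Slc7a5 (1997 ± 92.7), and the gap between them was within the SD of Slc7a5. Slc1a5 (1228 ± 31.6), Slc38a4 (1071 ± 49.8), Slc38a2 (846 ± 41.8) and Slc6a6 (813 ± 19.7) came next, and the gap between Slc38a2 and Slc6a6 was within the SD of Slc38a2. In WT control libraries the order began with Slc6a6 (1362 ± 76.4), Slc3a2 (1288 ± 58.1), Slc38a2 (1075 ± 47.8), Slc7a5 (1004 ± 54.1) and Slc38a4 (654 ± 31.4), where the gap between Slc6a6 and Slc3a2 was also within 1 SD of Slc6a6. Summed per kilobase, the light chains of Slc3a2 reached 2483 ± 90.1 in KO control and 1299 ± 47.7 in WT control libraries. The level of Slc3a2 over that of its light chains was 0.819, 0.807 and 0.860 in KO control libraries, against 0.996, 1.02 and 0.961 in WT control libraries. After heat shock the same ratio was 0.945, 1.02 and 0.986 in KO libraries and 1.30, 1.35 and 1.31 in WT libraries. In control MEFs the light chains thus differed more between the genotypes than the heavy chain did. Slc7a5 made up 80.4% of the summed light chains in KO control and 77.3% in WT control libraries, and Slc7a7 with Slc7a8 contributed 0.0682% and 0.0473% in KO control, against 1.66% and 1.52% in WT control libraries. These shares depend on the exon lengths of the annotation, which counts every annotated exon once.

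**Figure D2:**
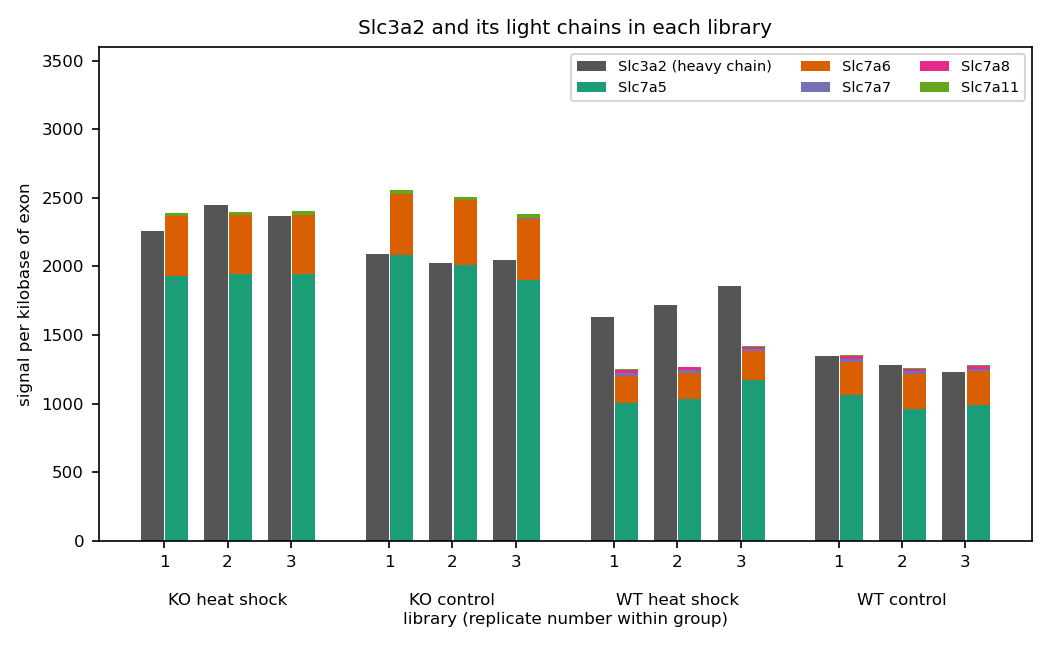
Signal per kilobase of exon of Slc3a2 (grey bars) and of its light chains (stacked coloured bars) in each of the 12 libraries, by group; Slc7a10 had no read. The KO control libraries have light chain stacks of 2383 to 2557 and grey bars below them, and the WT heat shock libraries have grey bars of 1634 to 1855 above their stacks.

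Slc7a11 (xCT), the light chain that imports cystine in exchange for glutamate, had a signal of 351, 360.3 and 431 in KO and 90.2, 102 and 121 in WT control libraries, and of 314, 307 and 325 in KO and 76.1, 76.1 and 74.4 in WT heat shock libraries. The lowest KO library lay above the highest WT library by more than the whole WT range, and Slc7a11 rose 3.64-fold in control MEFs (log2 1.86 ± 0.12, adjusted p = 2.13e-09) and 4.14-fold in heat shock MEFs. The gene is a textbook target of ATF4, which binds C/EBP-ATF response elements when amino acids run short or the unfolded protein response is on. Its promoter is shown because 2 copies of that element, in opposite orientation, stand close to the start of transcription. The stretch is chr3:50443623-50443709 on the minus strand of GRCm38.p6 (RefSeq promoter table), written 5′ to 3′, with both elements in capitals.
Slc7a11: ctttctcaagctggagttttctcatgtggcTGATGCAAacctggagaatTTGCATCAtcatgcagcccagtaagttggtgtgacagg
The elements begin 66 and 47 bases before the annotated start and are 11 bases apart. The letters searched were TGATGNAA on either strand, in windows of 250 bases before to 50 bases after each start, and 3.97% of all 32851 windows in the table held them. Such windows were at hand for 42 of the 60 members. Of the members called higher in KO control MEFs, 10 had a window and 2 held the letters, Slc7a11 and Slc1a4. Of those called lower, 5 had a window and 1 held them, Slc7a7, in 2 places. One, TGATGCAA, spelled as in Slc7a11, begins 1 base before one annotated start and 243 bases before another. The other, TGATGAAA, begins 141 bases before a start and is shown for comparison (chr14:54418048-54418115, minus strand, GRCm38.p6).
Slc7a7: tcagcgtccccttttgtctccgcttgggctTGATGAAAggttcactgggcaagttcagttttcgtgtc
The letters were thus in the windows of members that moved in both directions. By window they stood in 2 of 19 for members called higher, 2 of 10 for those called lower and 0 of 11 for those not called. With so few windows, 0 of 11 cannot be told apart from the 3.97% of all windows. Each match is a match of letters and not a bound site. The E-box CACGTG stood in 7.15% of all windows and in those of Slc1a7, Slc38a7, Slc43a1 and Slc36a1 among tested members, the cyclic AMP response element TGACGTCA in 1.79% of all windows and in that of Slc38a6, and the core of the heat shock element, GAANNTTC, in 7.86% of all windows and in those of Slc38a4, Slc1a3 and Slc6a17.

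The cationic carriers Slc7a1, Slc7a2 and Slc7a3 (CAT1 to CAT3) take up arginine, lysine and ornithine. Slc7a1 had a signal of 4344, 4261 and 4613 in KO and 3964, 3717 and 3891 in WT control libraries, and of 3796, 3954 and 3999 in KO and 3573, 3559 and 3651 in WT heat shock libraries. Its KO control libraries lay above its WT control libraries, yet the change of 0.19 ± 0.05 log2 was small and was not called. Slc7a2 had a signal of 731, 759.8 and 799 in KO and 218, 231 and 228 in WT control libraries, and of 740.4, 789 and 742 in KO and 181, 209 and 153 in WT heat shock libraries. It rose 3.37-fold in control MEFs (log2 1.75 ± 0.10, adjusted p = 4.34e-10) and 4.20-fold in heat shock MEFs, so that its KO libraries were the higher by more than the spread within either genotype. Slc7a3 was near the filter, at most 16.6 in a library, with -0.53 ± 0.30 log2 in control MEFs (adjusted p = 0.129). The second heavy chain, Slc3a1, was also near the filter. Slc3a1 had a signal of 2.12, 9.99 and 10.2 in KO control and 23.8, 10.1 and 11.2 in WT control libraries, which overlap, and its change of -1.04 ± 0.48 log2 was not called (adjusted p = 0.0609). Without KO control replicate 2 or 3 it was called, at -1.34 and -1.36 log2.

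The Slc1 family holds sodium-driven carriers for glutamate and for small neutral amino acids. Slc1a5 (ASCT2), which exchanges glutamine for other neutral amino acids, had a signal of 5275, 5073 and 5027 in KO and 2203, 2019 and 1974 in WT control libraries, and of 5456, 5699.9 and 5556 in KO and 2543, 2629 and 2845 in WT heat shock libraries. Slc1a5 rose 2.48-fold in control MEFs (log2 1.31 ± 0.06, adjusted p = 1.81e-11) and 2.09-fold in heat shock MEFs. Slc1a4 (ASCT1), a carrier of alanine, serine, cysteine and threonine, had a signal of 2333, 2227 and 2284 in KO and 1134, 1131 and 1119 in WT control libraries, and of 2591, 2518 and 2594 in KO and 1194, 1156 and 1182 in WT heat shock libraries. The KO libraries lay far above the WT libraries, which were almost alike among themselves, and the change was 1.02 ± 0.04 log2 in control and 1.12 ± 0.04 log2 in heat shock MEFs. Slc1a3 (GLAST), a glutamate and aspartate carrier best known from astrocytes, had a signal of 296, 323 and 332 in KO and 221, 257 and 219 in WT control libraries, and of 322, 304 and 328 in KO and 238, 191 and 208 in WT heat shock libraries. Here too the KO libraries were above the WT libraries, but the changes of 0.45 and 0.58 log2 in control and heat shock MEFs fell short of 1.5-fold. The one in heat shock MEFs was 1.499-fold by limma (adjusted p = 1.04e-04), just under the minimum. On the recovered reads edgeR gave 0.59 log2 and called it. Slc1a7 (EAAT5), a glutamate carrier of the retina, was the fourth tested member and was low, with 24.4, 17.5 and 19.2 in KO control and 5.18, 4.33 and 2.79 in WT control libraries (2.08 ± 0.27 log2). Of the 4 tested members of this family, 3 were called higher and 0 lower in KO control MEFs, where 22.9% of all tested genes were higher and 25.8% lower. Slc1a7 reached the filter signal in KO libraries alone and had to differ in order to pass.

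The Slc38 family carries glutamine and other small neutral amino acids, and 3 of its members stand side by side on the minus strand of chromosome 15 (GRCm38 positions 96571418 to 97055956). Slc38a1 (SNAT1), a sodium-coupled importer of glutamine, had a signal of 855, 859.7 and 963 in KO and 4633, 4564 and 4761 in WT control libraries, and of 818, 879.6 and 849.7 in KO and 4019, 3859 and 3823 in WT heat shock libraries. It fell 5.21-fold in KO control MEFs (log2 -2.38 ± 0.06, adjusted p = 2.68e-14), and no KO library came near the WT range. Slc38a2 (SNAT2), the importer that cells raise when amino acids are scarce, had a signal of 7169, 7369 and 7885 in KO and 9125, 9414 and 9957 in WT control libraries, and of 7853, 8029 and 7843 in KO and 9126, 8266 and 8611 in WT heat shock libraries. Its KO control libraries were below its WT control libraries, and the change of -0.35 ± 0.05 log2 was not called. Slc38a4 (SNAT4) had a signal of 4352, 4559 and 4777 in KO and 2693, 2728 and 2941 in WT control libraries, and of 4731, 4682 and 4583 in KO and 2499, 2547 and 2906 in WT heat shock libraries. It rose by 0.71 ± 0.06 log2 in control and 0.82 ± 0.06 log2 in heat shock MEFs. The 3 neighbours, 44.48 kb and 295.1 kb apart, thus went 3 ways: the first lower, the second not called and the third higher.

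**Figure D3:**
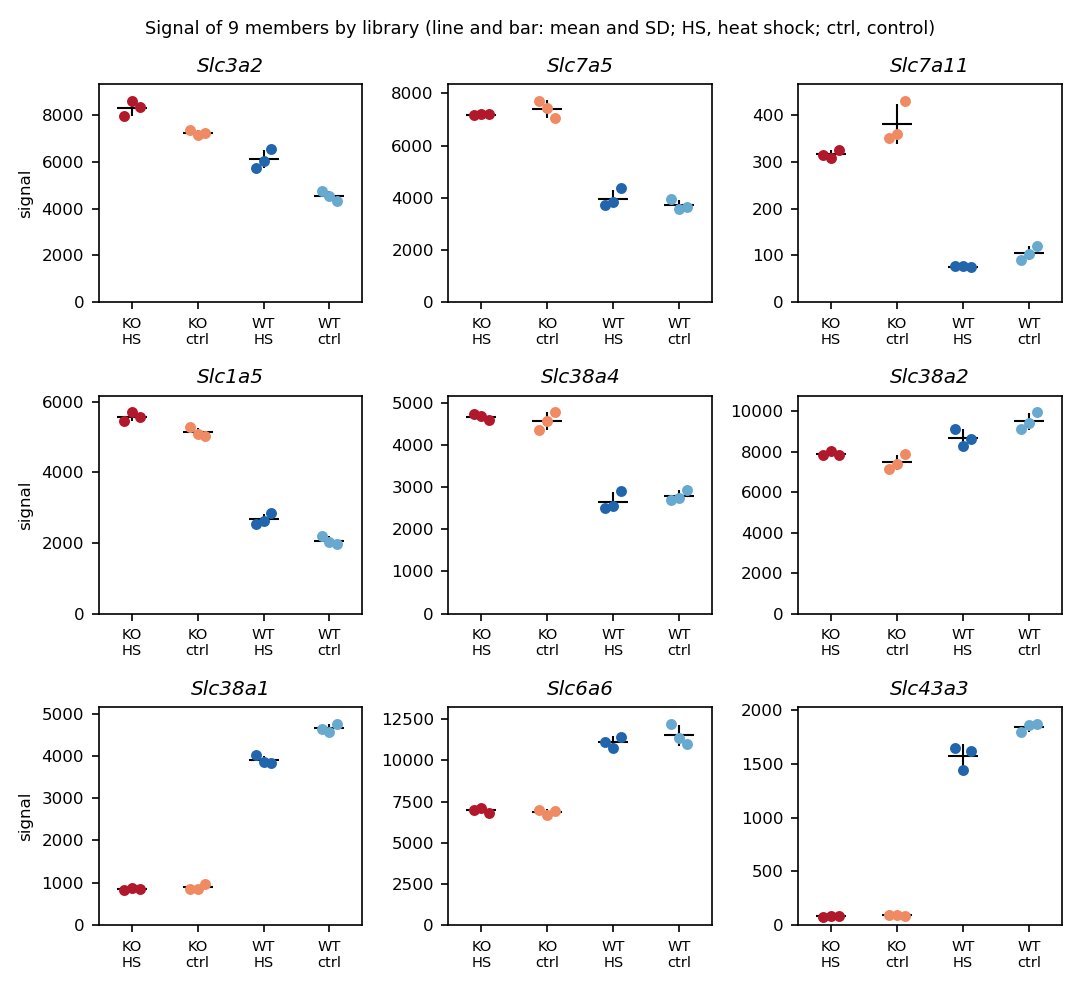
Signal of 9 members in each library (points), with the mean and SD of the 3 libraries of a group (line and bar); axes start at 0 and differ between panels. Slc3a2, Slc7a5, Slc7a11, Slc1a5 and Slc38a4 have their KO points above their WT points, and Slc38a1, Slc6a6 and Slc43a3 have them below; Slc38a2 has its KO points below by a small margin.

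Among the other Slc38 members, Slc38a7, which releases glutamine and asparagine from lysosomes, had a signal of 746, 663 and 738 in KO and 348, 309.7 and 289.9 in WT control libraries, and of 768, 739.6 and 770.2 in KO and 349.7, 356 and 329 in WT heat shock libraries. It rose 2.26-fold in control MEFs (log2 1.18 ± 0.08, adjusted p = 3.88e-09), with 1.14 log2 in heat shock MEFs. Slc38a9, the lysosomal arginine sensor upstream of mTORC1, had a signal of 70.0, 89.0 and 102 in KO and 115, 147 and 156 in WT control libraries, and of 96.1, 89.2 and 95.2 in KO and 141, 136 and 96.4 in WT heat shock libraries. It was called lower in control MEFs (-0.68 ± 0.18 log2, adjusted p = 0.00291) but not in heat shock MEFs (-0.39 ± 0.18 log2, adjusted p = 0.0580), and the control call was lost under quantile normalization (-0.28 log2) and without KO control replicate 1 (-0.53 log2). Slc38a10 showed the opposite order of calls: its -0.49 log2 in control MEFs was not called and its -0.62 log2 in heat shock MEFs was, though no longer under quantile normalization (-0.57 log2) or without KO heat shock replicate 1 (-0.56 log2). Slc38a3 (SNAT3), a glutamine carrier of liver and kidney, had 0, 0.832 and 1.13 in KO control and 18.7, 15.2 and 13.3 in WT control libraries. That is 2 reads in KO control and 58 in WT control libraries, a ratio of signals of 0.0430 with an exact 95% counting interval of 0.00509 to 0.163, which covers counting error only. Slc38a6 was not called (-0.27 ± 0.17 log2).

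Slc6 members carry amino acids, amines and osmolytes together with sodium and chloride. Slc6a6, which takes up the osmolyte taurine, had a signal of 7000.4, 6685 and 6935 in KO and 12239, 11344 and 10985 in WT control libraries, and of 6977, 7112 and 6825 in KO and 11133, 10766 and 11452 in WT heat shock libraries. It fell by 0.74 log2 in control MEFs (adjusted p = 4.57e-09) and by 0.67 log2 in heat shock MEFs, with every KO library below every WT library. Slc6a8, the creatine carrier, had a signal of 1766, 1716 and 1585 in KO and 2399, 2224 and 2213 in WT control libraries, and of 1625, 1775 and 1743 in KO and 2351, 2376 and 2512 in WT heat shock libraries. Its KO libraries were also the lower, at -0.43 ± 0.06 log2 in control and -0.49 ± 0.06 log2 in heat shock MEFs, below 1.5-fold in both. Slc6a9 (GlyT1), the glycine carrier, had a signal of 1941, 1867 and 1979.6 in KO and 931, 845 and 808 in WT control libraries, and of 1971, 2106 and 2102 in KO and 1043, 953 and 1061 in WT heat shock libraries. It rose 2.24-fold in control MEFs (log2 1.16 ± 0.06, adjusted p = 3.41e-10) and 2.02-fold in heat shock MEFs. Exons of genes on the opposite strand cover 38.6% of the Slc6a9 exons, the largest such overlap among the tested members, followed by 26.5% for Slc3a1 and 9.18% for Slc43a2.

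Slc6a4 and Slc6a2, which carry amines, were called in opposite directions. Slc6a4, which takes serotonin back into nerve endings and platelets, had a signal of 5.30, 5.83 and 2.26 in KO and 679, 709.7 and 669 in WT control libraries, and of 5.65, 4.15 and 8.37 in KO and 672, 736 and 612 in WT heat shock libraries. It fell by 7.05 log2 in control MEFs (adjusted p = 3.79e-12) and by 6.62 log2 in heat shock MEFs, and no KO library reached a signal of 10. Slc6a2, which takes up noradrenaline, had a signal of 74.2, 44.1 and 54.3 in KO control and 5.18, 0 and 1.40 in WT control libraries (4.54 ± 0.47 log2). Slc6a12, a carrier of betaine and GABA, was low in KO control libraries (14.8, 11.7 and 15.8) and had no read in the 3 WT control libraries, so that it was at least 17.2-fold higher, with 3 reads over the WT group as the floor. In heat shock libraries it had 57 reads in KO and 1 in WT MEFs, a ratio of 54.0 with an exact 95% counting interval of 9.31 to 2171. Slc6a7, the proline carrier of the brain, had 4.24, 3.33 and 1.13 in KO control and 31.1, 33.2 and 32.8 in WT control libraries (-3.20 ± 0.39 log2). Slc6a17 was not called (-0.12 ± 0.08 log2).

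Slc43a1 (LAT3) and Slc43a2 (LAT4) let large neutral amino acids such as leucine cross the membrane without a driving ion, and the human product of SLC43A3 carries purine nucleobases. Slc43a1 had a signal of 283, 322 and 258 in KO and 57.0, 69.3 and 52.4 in WT control libraries, and of 271, 285 and 286 in KO and 55.3, 48.9 and 84.0 in WT heat shock libraries. It rose 4.78-fold in control MEFs (log2 2.26 ± 0.18, adjusted p = 2.13e-08). Slc43a3 had a signal of 92.3, 90.7 and 83.7 in KO and 1795, 1863 and 1877 in WT control libraries, and of 76.9, 85.1 and 79.5 in KO and 1654, 1442 and 1619 in WT heat shock libraries. It fell by 4.36 log2 (adjusted p = 2.52e-15), and both genes lie on the plus strand of chromosome 2, 72.98 kb apart (GRCm38). Slc43a2 had a signal of 10.6, 13.3 and 11.3 in KO and 122, 127 and 142 in WT control libraries, and of 21.5, 13.5 and 10.5 in KO and 144, 153 and 142 in WT heat shock libraries. It fell by 3.37 log2, so that the 2 carriers for leucine in this family were called in opposite directions. In heat shock MEFs the changes of Slc43a1, Slc43a2 and Slc43a3 were 2.18, -3.25 and -4.27 log2.

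The proton-driven carrier Slc36a1 and its relative Slc36a4, which act at lysosomes and the plasma membrane, were called once between them. Slc36a1 (PAT1) had a signal of 671, 601 and 581 in KO and 461, 439.7 and 422 in WT control libraries, and of 615, 669 and 686 in KO and 439, 378 and 402 in WT heat shock libraries. Its KO libraries were above its WT libraries in both conditions, and the change was 0.48 ± 0.08 log2 in control MEFs, which was not called, and 0.69 ± 0.08 log2 in heat shock MEFs, which was. Slc36a4 (PAT4) had a signal of 320.3, 388 and 328 in KO and 413, 504 and 529 in WT control libraries, and of 364, 390.0 and 345 in KO and 388, 377 and 383 in WT heat shock libraries. Its change was -0.48 ± 0.10 log2 in control MEFs (adjusted p = 6.18e-04) and -0.06 ± 0.10 log2 in heat shock MEFs (adjusted p = 0.573), and neither was called, the first because it is below 1.5-fold.

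In KO heat shock against WT heat shock MEFs, which share no library with the control comparison, 14 of the 35 members were higher and 10 were lower, where 23.2% of all tested genes were higher and 25.5% were lower. Of the 14 higher, 13 were higher in control MEFs too (92.9% of each list), and of the 10 lower, 9 were (90% of each list). The same shares over all tested genes were not counted. Among the shared calls were the 8 members that reached the filter signal in 1 genotype alone and had to differ in order to pass. Of the other 27, 11 were higher and 5 lower after heat shock, where 21.3% and 20.8% of the genes that reached it in both genotypes were. The calls that differed were Slc3a2 and Slc38a9 in control MEFs alone, and Slc36a1 and Slc38a10 in heat shock MEFs alone. The difference between the 2 comparisons was not called for any of these 4 genes.

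**Figure D4:**
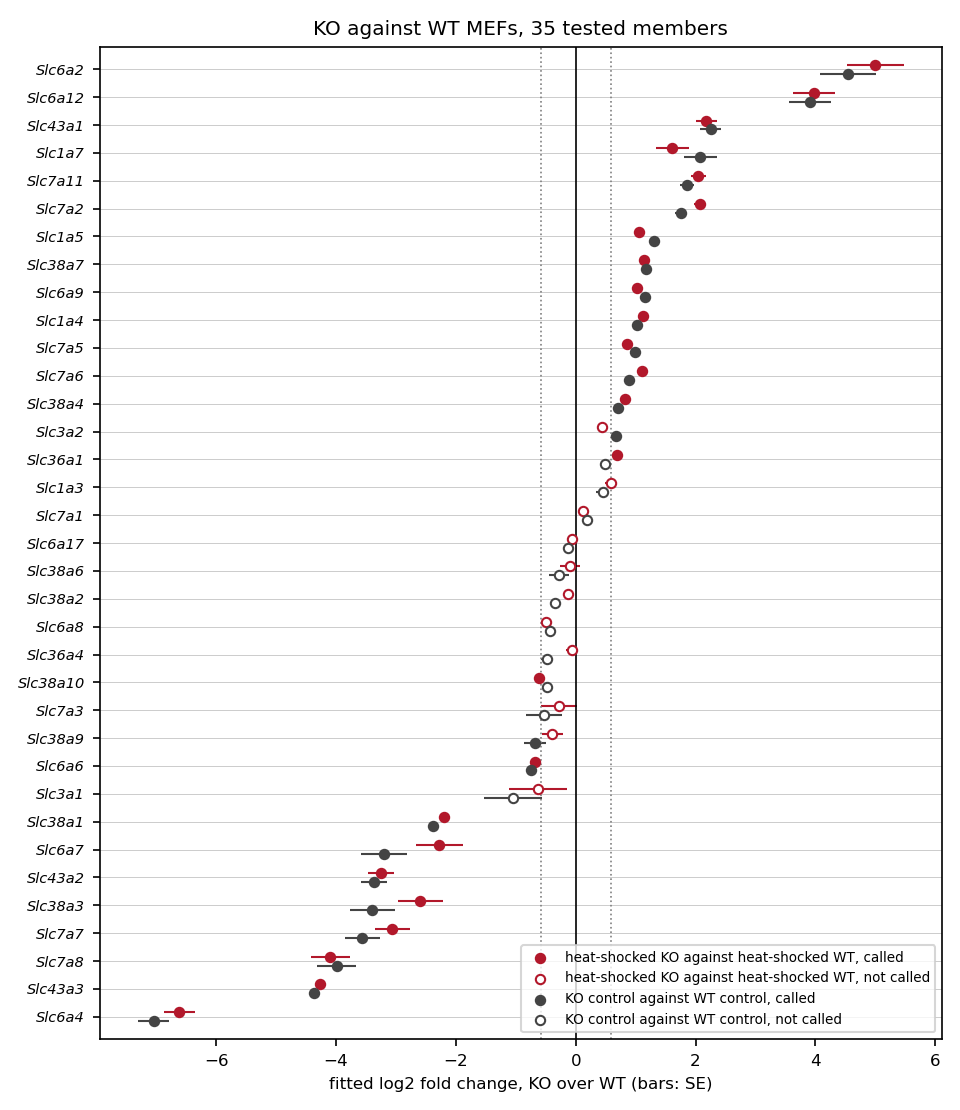
Fitted log2 fold change in KO over WT MEFs with its SE, in heat shock (red) and control (grey) MEFs, for the 35 tested members in order of the control value; filled points were called and dotted lines mark 1.5-fold. The 2 points of a gene lie on the same side of 0 for all 35 members, with Slc6a2 (5.00 in heat shock, 4.54 in control MEFs) at the top and Slc6a4 (-6.62 in heat shock, -7.05 in control MEFs) at the bottom. The same share over all tested genes was not counted, and 8 of the 35 reached the filter signal in 1 genotype alone and had to differ.

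Between heat shock and control MEFs the fitted changes of the 35 members were -0.45 to 0.61 log2 in WT and -0.26 to 1.05 log2 in KO MEFs, where those between the control groups of the genotypes spanned -7.05 to 4.54 log2. The widest of the heat shock changes belonged to members with a signal under 30, Slc1a7 in WT and Slc38a3 in KO. In WT heat shock against WT control MEFs 0 of the 35 members were called higher and 0 lower by limma, where 1.66% of all tested genes were called higher and 2.02% lower; edgeR and DESeq2 on the recovered reads called none either. At an unadjusted p of at most 0.05, 4 members were higher and 7 were lower, but the share of all tested genes at that p was not counted. By the adjusted p alone, without the 1.5-fold minimum, 3 were higher (14.2% of all tested genes) and 6 were lower (14.6%). The 3 were Slc3a2 (0.43 ± 0.06 log2, adjusted p = 3.31e-04), Slc1a5 (0.37 ± 0.06 log2, adjusted p = 7.28e-04) and Slc6a9 (0.24 ± 0.06 log2, adjusted p = 0.0125). The 6 were Slc7a11 (-0.45 log2), Slc7a2 (-0.33), Slc36a4 (-0.32), Slc7a6 (-0.30), Slc38a1 (-0.25) and Slc43a3 (-0.23), with adjusted p-values of 0.00143 for Slc7a6 to 0.0402 for Slc43a3. In each of these 9 genes the 3 WT heat shock libraries lay wholly to one side of the 3 WT control libraries. They were picked by p on the same libraries, so this adds no support. Of all 35 members 7 lay wholly above and 7 wholly below, beside 21.5% and 20.9% of all tested genes. Of the light chains of Slc3a2, Slc7a6 and Slc7a11 were among the 6, below 1.5-fold and not called, and Slc7a5 did not pass (0.09 ± 0.06 log2). With 14.6% of all tested genes lower by the same p, this is not a result about the light chains.

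In KO heat shock against KO control MEFs, 0 members were called in either direction by limma, edgeR or DESeq2, where 0.577% of all tested genes were called higher and 0.31% lower. By the adjusted p alone the count was also 0 (1.8% of all tested genes higher, 0.796% lower). At an unadjusted p of at most 0.05, 4 members were higher and 2 lower, again without a share of all tested genes to set beside them. The lowest adjusted p-values were those of Slc1a4 (0.17 ± 0.04 log2, adjusted p = 0.0617), Slc7a1 (-0.17 ± 0.05 log2, adjusted p = 0.0794) and Slc3a2 (0.20 ± 0.06 log2, adjusted p = 0.0810). Slc7a11 was -0.26 ± 0.12 log2 in KO MEFs (adjusted p = 0.281), and Slc1a5 was 0.12 ± 0.06 log2 (adjusted p = 0.292).

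A member past a threshold in WT and not in KO MEFs need not differ between them, so the response in KO minus that in WT was tested itself. It was called for 0 members and for 0% of all tested genes in either direction by limma, and for 0 members by edgeR and DESeq2, which called 6 and 28 genes higher and 4 and 7 genes lower among all. At an unadjusted p of at most 0.05, 5 members were higher and 2 lower, and here too the share of all tested genes was not counted. The lower were Slc1a5 (-0.25 ± 0.08 log2, adjusted p = 0.161) and Slc3a2 (-0.23 ± 0.08 log2, adjusted p = 0.178). For both genes the response was smaller in KO than in WT MEFs, 0.12 in KO and 0.37 in WT for Slc1a5, and 0.20 in KO and 0.43 in WT for Slc3a2, but the difference did not pass the threshold. Over the alternatives the adjusted p for Slc1a5 ranged between 0.0486 and 0.340, and no alternative brought its difference to 1.5-fold. Among the higher were Slc36a4 (0.41 ± 0.14 log2, adjusted p = 0.183), Slc7a6 (0.22 ± 0.07 log2, adjusted p = 0.170) and Slc38a2 (0.21 ± 0.08 log2, adjusted p = 0.189).

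**Figure D5:**
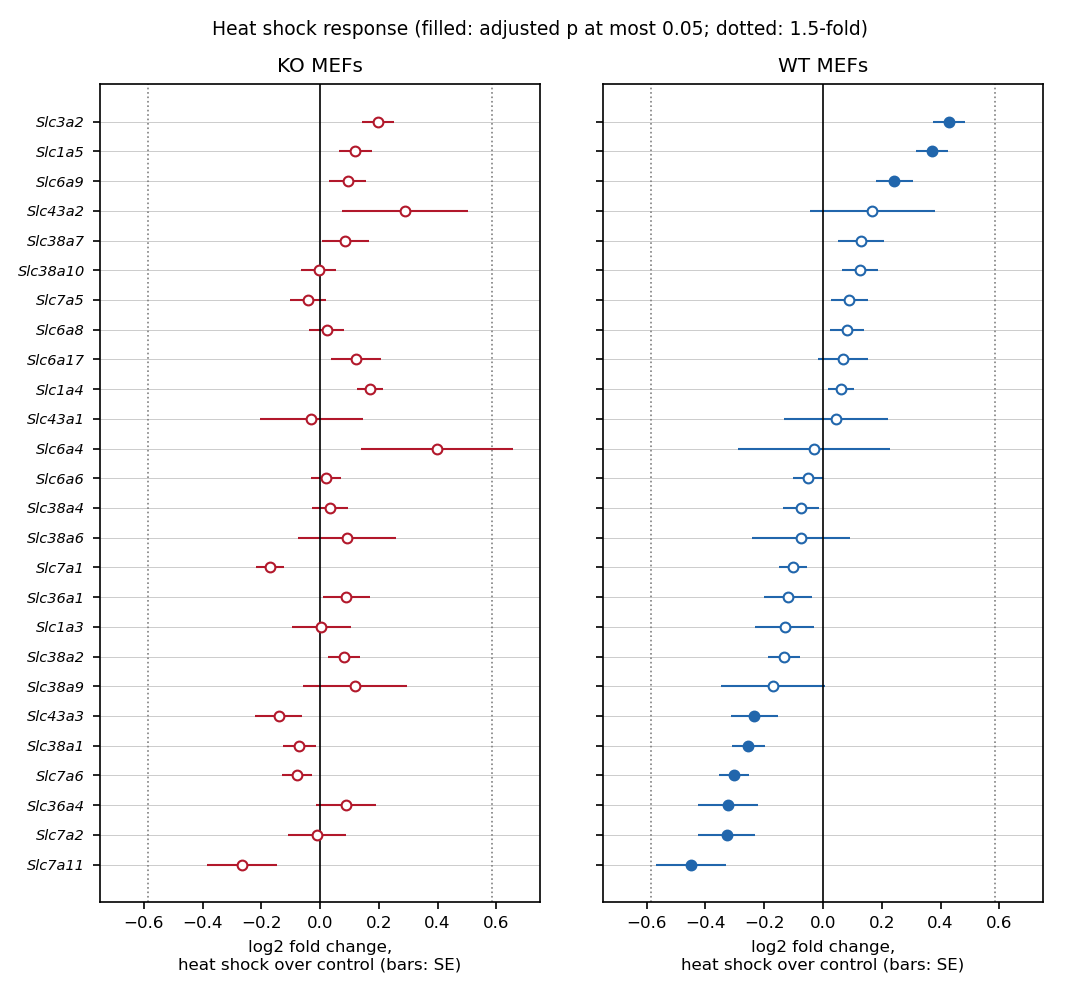
Fitted log2 fold change in heat shock over control MEFs with its SE, in KO (left) and WT (right) MEFs, for the 26 members with a mean signal of at least 100 in a control group, in order of the WT value; filled points have an adjusted p of at most 0.05 and dotted lines mark 1.5-fold. No point lies beyond a dotted line, and filled points (3 higher, 6 lower) stand in the WT panel alone.

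Other genes that handle amino acids were counted in lists written from general knowledge, but with earlier results of these data known. Their counts therefore describe these data and are not a test of any response. Of 26 genes of the amino acid response, in which ATF4 raises transporters and enzymes of amino acid synthesis, 18 were higher and 4 lower in KO control against WT control MEFs (median 0.90 log2), where 22.9% of all tested genes were higher and 25.8% lower. Trib3, a pseudokinase that ATF4 induces, was at 3.41 log2, and the transcription factor Atf5 was at 3.10, while Vldlr, a lipoprotein receptor, and Stc2, a secreted glycoprotein, had no read in KO control libraries. With 3 reads over the KO control group as the floor, Vldlr was at least 942-fold lower and Stc2 at least 186-fold lower, and the median of the list stayed at 0.90 log2 with both at these bounds. Atf4 itself, named here after its values were seen, was at 0.65 log2 and had a signal of 18178, 17545 and 17625 in KO control libraries, against 11715, 11434 and 10931 in WT control libraries. In heat shock MEFs 15 of the 26 were higher and 4 lower, where 23.2% of all tested genes were higher and 25.5% lower. Of 23 cytosolic aminoacyl-tRNA synthetases and their scaffold genes, which charge tRNAs, 8 were higher and the other 15 were not called (median 0.28 log2), led by Sars (1.52), Cars (1.35), Aars (1.26) and Gars (1.11). Of 19 genes of glutamine, glutamate and serine metabolism, 7 were higher and 1 lower (median 0.21 log2): Gpt2 at 1.65, Got2 at 1.31 and Phgdh, the first enzyme of serine synthesis, at 1.23 were higher, and Glul, glutamine synthetase, was lower at -1.30. Some genes stand in more than 1 list. Asns, Aldh18a1, Pycr1, Phgdh, Psat1, Psph and Shmt2 belong both to this list and to that of the amino acid response, so the 2 counts are not independent. The list of the amino acid response also shares Sesn2 with that of mTORC1 and Cth with that of cystine use, both given below. Ctns was listed both for cystine use and among the transporters outside the 7 families.

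Of 31 genes through which mTORC1 senses amino acids, 5 were higher and 6 lower in KO control MEFs (median -0.04 log2), with Gatsl2 at -2.50 and Sesn3 at -1.80 log2. Beside each list of this paragraph, 22.9% of all tested genes were higher and 25.8% lower in KO control against WT control MEFs. The Rag GTPase genes Rragb and Rragd had no read in KO control libraries and were lower against the same floor, Rragb at least 197-fold and Rragd at least 107-fold. Of 13 genes that use cystine for glutathione, taurine or redox work, 5 were higher and 4 lower. Cth, which makes cysteine from cystathionine, was at 2.44 log2, with Cdo1 at -2.11 and Txnrd1 at -0.83, while Cbs, the enzyme before Cth, had no read in KO control libraries and was at least 15.4-fold lower. Of 15 tested amino acid transporters outside the 7 families, 4 were higher and 4 lower, among them Slc15a3 at 3.39, Slc17a7 at 2.12, the mitochondrial aspartate and glutamate carrier Slc25a13 at -2.01 and Slc16a10 at -1.78 log2. In WT heat shock against WT control MEFs, 1 gene of these lists was called higher, Atf3, and 2 were called lower, Rragc and Mios. Of all tested genes 1.66% were called higher and 2.02% lower there.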

How the data were processed

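Poly-A RNA of TG2 KO and WT MEFs, with or without heat shock, was sequenced as stranded paired-end libraries. Per the labels and the methods of the study, reads were trimmed with cutadapt 1.10, aligned with STAR 2.5.2 and counted per gene with HTSeq-count. The deposited signal is those counts divided by the authors with 1 DESeq2 size factor per library, and every value was a whole number of reads within 0.01 read. The submitters' notes name mm9 and the methods GRCm38, and the table holds no positions, so positions and exon lengths come from GENCODE for GRCm38. Promoter windows come from RefSeq (GRCm38.p6).

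Of 45808 genes, 14201 reached a signal of 10 in 3 or more of the 12 libraries. On log2(signal + 1), a pseudocount of 1, a limma 3.58.1 model was run in R 4.3.3 (eBayes with a trend, 1 mean per group, all libraries), and calls needed a p adjusted after Benjamini and Hochberg not above 0.05 and a fold of 1.5 or more. Fold changes are on that scale and understate those of low genes. edgeR 4.0.16 and DESeq2 1.42.0 on the recovered reads, other filters, pseudocounts and scalings, a replicate block and leaving out each library were alternatives. Values of every library are given for 25 members: the 6 members called higher and the 6 called lower with the largest changes between the control groups and a mean signal of 100 or more, and 23 chosen for their role. At most 4 called genes of each other list are named, by size. The members and lists were chosen with earlier results of these data known. Libraries held 15319300 to 27668395 reads in genes (median 19119552). Results for some members are not reported here.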

Additional observations from a re-analysis of the deposited data

How the results depend on the processing

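No called change of a member turned its direction under any alternative run. The members called in KO control against WT control were 12 to 17 higher and 8 to 14 lower over all alternatives (14 higher and 9 to 11 lower when single libraries were left out), and in KO heat shock against WT heat shock 12 to 17 higher and 8 to 12 lower (14 to 15 and 9 to 10 when single libraries were left out). The lowest counts came with a minimum signal of 50, which leaves fewer members tested. Without the fold minimum, 3 members were higher and 6 lower in WT heat shock against WT control. Quantile normalization moved the median of all genes in KO control over WT control to 0.09 log2, against -0.04 in the fit reported, and ended the calls of Slc38a9 and Slc38a10. Slc1a3 was called in control MEFs with it (0.62 log2), and in heat shock MEFs with it (0.71), with a pseudocount of 0.5 (0.59), and without WT heat shock replicate 1 (0.67) or KO heat shock replicate 2 (0.62). The cause of these shifts was not tested.

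The replicate numbers did not pair the libraries: of 18 correlations between same-numbered libraries of different groups 2 were above 0.1 (median -0.0156), and the best match was the own number for 6 of 12. With the number as a replicate block, 14 members were higher and 10 lower in both comparisons of the genotypes, and 0 in those of heat shock.

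Counts over all tested genes moved more. Without the fold minimum they were 5063 higher and 5729 lower in KO control, 5129 and 5670 in KO heat shock against WT heat shock, 2020 and 2069 in WT heat shock and 256 and 113 in KO heat shock against control. In WT heat shock 122 genes were higher with a minimum signal of 50, 157 higher and 155 lower without WT control replicate 3, and 478 and 450 lower without WT control replicate 1 and WT heat shock replicate 1. In KO heat shock 30 were higher and 14 lower when KO libraries alone were fitted, and 29 lower without KO control replicate 3. The difference of the responses, with 0 calls in the fit reported, reached 101 higher and 25 lower genes without WT control replicate 1. Depth limits the 8 members that reached the filter signal in 1 genotype alone, whose fitted changes depend on the pseudocount.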
